A study of Mus musculus with 70 samples.

Results

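Resting MmSCs, the mesenchymal stromal cells of uninjured mouse hindlimb muscle, were described from 3 of the 70 libraries of the study. They were compared with 9 libraries of the other cell populations sorted in the same experiment: satellite cells (MuSCs), the stem cells that form new myofibres, CD31+ cells, CD31 being a surface protein of endothelium, and CD45+ cells, CD45 being the common surface protein of leukocytes (n = 3 libraries each). All 12 libraries came from C57BL/6J mice whose muscle was uninjured and which were given no treatment. The muscle was digested with enzymes, each population was sorted by flow cytometry with a repeat sort for purity, and 1000 cells went into each library of polyadenylated RNA. The labels do not give the surface markers of the MmSC gate, nor say which animal a library came from. CD31 and CD45 are the products of Pecam1 and Ptprc, so these genes were set by the sort and are no finding.

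Mesenchymal stromal cells of muscle, also called fibro-adipogenic progenitors, lie between myofibres and around vessels. They lay down and turn over the interstitial matrix and secrete factors that act on satellite cells, and after chronic damage they can give rise to fat or scar tissue. PDGF receptor alpha is the surface receptor most used to recognise them in mouse muscle, and decorin, a small proteoglycan that coats collagen fibrils, is among their known abundant products.

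Pdgfra, the gene of that receptor (build GRCm38, chromosome 5, 75152292 to 75198215, plus strand), had 626, 544 and 591 CPM (counts scaled to library size with TMM factors) in the MmSC libraries. It had 0.2, 0.355 and 0 CPM in the MuSC libraries, 3.08, 2.05 and 1.84 CPM in the CD31+ libraries and 1.48, 0.601 and 0.897 CPM in the CD45+ libraries. The groups did not overlap, and the nearest other population, CD31+ cells, lay 7.92 ± 0.24 below MmSCs on the log2 scale (fitted difference ± SE, edgeR adjusted p = 1.54e-11). Dcn, which encodes decorin, had 33900, 30700 and 28800 CPM in the MmSC libraries, against 27.8, 2.48 and 69.8 CPM in MuSC, 0, 2.93 and 1.84 CPM in CD31+ and 10.9, 13.5 and 8.68 CPM in CD45+ libraries. Its MmSC libraries were far above the other 9, by 9.82 ± 0.80 over MuSCs (edgeR adjusted p = 1.89e-07). That difference rested in part on the third MuSC library, without which it was 10.94. The summed level of 6 MmSC markers fixed for this check (Pdgfra, Dcn, Col1a1, Col1a2, Col3a1 and Lum) was 57700 to 83900 CPM in MmSC libraries, 1000 to 1120 CPM in MuSC, 13.5 to 23.2 CPM in CD31+ and 12.9 to 35.9 CPM in CD45+ libraries, and all 6 were called above each of the other populations. The label and its markers went together. Pdgfra may have been set by the sort, and genes were chosen with earlier results of these data known. These levels are thus a description of the label and no test of it.

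Total counts ran from 5031591 to 7519352 in the MmSC libraries and from 2252373 to 4587239 in the other 9. Pearson correlations of log2 CPM were 0.970 to 0.976 between MmSC libraries, 0.746 to 0.773 with MuSC, 0.635 to 0.663 with CD31+ and 0.454 to 0.498 with CD45+ libraries. Of markers of other cell types, 10 endothelial markers summed to 99.2 to 122 CPM in MmSCs against 15000 to 15600 CPM in CD31+ cells, and most of that sum was Tek, a receptor treated below. In the same libraries 9 leukocyte markers summed to 9.19 to 16.4 CPM against 26500 to 31800 CPM in CD45+ cells, and 7 satellite cell markers to 77.5 to 102 CPM against 6470 to 7510 CPM in MuSCs. Cldn5 of endothelium, Tyrobp of leukocytes, Cd3e and Cd3g of T cells, Myf5 and Myod1 of satellite cells and Sox10 of Schwann cells had no count in any MmSC library. Schwann cell transcripts were not absent, since 6 markers summed to 20.9 to 25.2 CPM in MmSCs. Their sum was 5.07 to 8.87 CPM in MuSCs, 3.67 to 11.4 CPM in CD31+ cells and 58.0 to 80.2 CPM in CD45+ cells. Of these markers, 3 were tested and 1 was above each population. The 8 pericyte and smooth muscle markers summed to 122 to 167 CPM in MmSCs, against 1200 to 2080 CPM in MuSCs and 590 to 831 CPM in CD31+ cells, and 2 of them, Cspg4 and Abcc9, were above each population. The 8 myofibre markers, mostly Acta1, were at 368, 276 and 132 CPM in the MmSC libraries and 317 to 356 CPM in MuSCs, so that the first MmSC library was the highest of the 12, and 3 were above the mean. The 5 red blood cell markers were at 53.6, 1.85 and 0.459 CPM in the MmSC libraries, against up to 459 CPM in CD31+ and 551 CPM in CD45+ libraries. The 6 tendon cell markers summed to 417, 674 and 227 CPM in the MmSC libraries, an uneven level, and they also set 1 MuSC library apart. Not all were present: the tendon factor Scx, given below, was near absent. Of the 6, 4 passed the filter, all 4 were above the mean and 2 were above each population. Tnmd, the tendon membrane protein tenomodulin, had 0, 0 and 32.9 CPM in the MuSC libraries. The 11 genes of dissociation stress summed to 2260 to 3280 CPM in MmSCs, within the range of the other 9 libraries (1190 to 6760 CPM). Because each library is a bulk of 1000 sorted cells, fewer cells of a type and less RNA per cell cannot be told apart.

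Of 14830 genes tested, 3874 (26.1%) were higher in MmSCs than the mean of the other 3 populations and 2750 (18.5%) were lower, at an edgeR adjusted p under 0.05. A mean can be exceeded because 1 or 2 populations lack a gene, so each population was also compared singly. MmSCs were above MuSCs for 3484 genes (23.5%) and below them for 2561 (17.3%). They were above CD31+ cells for 3583 genes (24.2%) and below them for 3356 (22.6%). Against CD45+ cells, 4228 genes (28.5%) were higher and 4131 (27.9%) lower. Genes higher than each of the other 3 numbered 1362 (9.18%), and 460 (3.10%) were lower than each. Of the 3874 genes above the mean, 566 were at the same time below at least 1 population, 188 of them below MuSCs, 242 below CD31+ cells and 157 below CD45+ cells. In 397 genes the MmSC level was above each population by a log2 difference of at least 3.

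The genes described here were taken from 18 lists of receptors, surface proteins, transcription factors, matrix genes and secreted proteins, 726 genes in all, of which 621 passed the filter on low counts. Of these 726, 274 were above each population, 444 above the mean, 69 below the mean and 11 below each. The background to read these against is 9.18% above each, 26.1% above the mean and 18.5% below it over all genes tested. The lists were chosen with earlier results of these data known, so their shares are a description. Each share is over all members of a list, tested or not, while the background is over genes tested. The lists divided sharply. Fibre assembly and cross-linking genes were above each population in 30 of 38 cases (78.9% of the list), proteases and inhibitors in 30 of 47 (63.8%), matrix glycoproteins in 34 of 54 (63.0%), growth factor antagonists in 19 of 33 (57.6%) and collagens in 22 of 44. Cytokine receptors did so in 3 of 38 (7.89%), and Hox genes in 0 of 39. The median log2 difference from the mean was 5.59 for the tested matrix glycoproteins, 4.92 for collagens, 0.51 for cytokine receptors and 0.18 for cytokines and chemokines, against -0.043 over all genes tested.

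**Figure D1:**
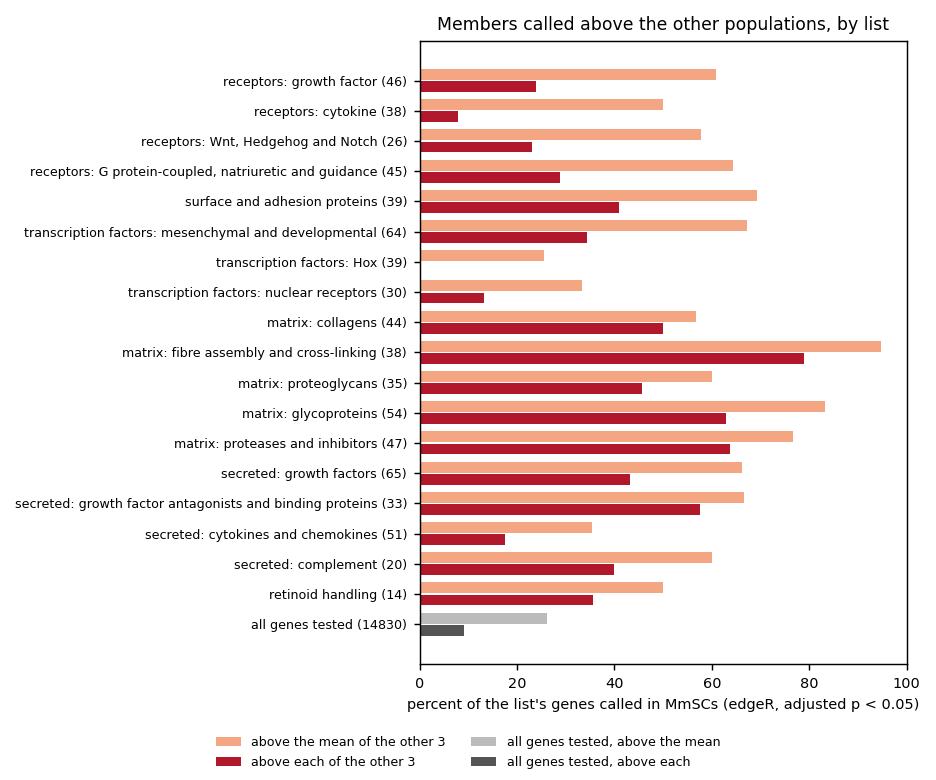
For each of the 18 gene lists and for all genes tested, bars give the percent of genes called above the mean of the other 3 populations and above each of them (edgeR, adjusted p under 0.05, 3 libraries per population). The fibre assembly list reaches 78.9% above each population and the Hox list 0%, against 9.18% of all genes tested.

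The other population nearest to MmSCs, meaning the one with the smallest difference, was MuSCs for 134 of the 274 listed genes above each population (48.9%), CD31+ cells for 85 (31.0%) and CD45+ cells for 55 (20.1%). Over all 1362 genes above each population, the same shares were 46.3%, 32.3% and 21.4%. Differences below are given against the population with the lowest signed difference unless another is named. For genes above each population this is the nearest one, and the value is the smallest of the 3. For genes lower in MmSCs than another population it is the widest gap downward.

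**Figure D2:**
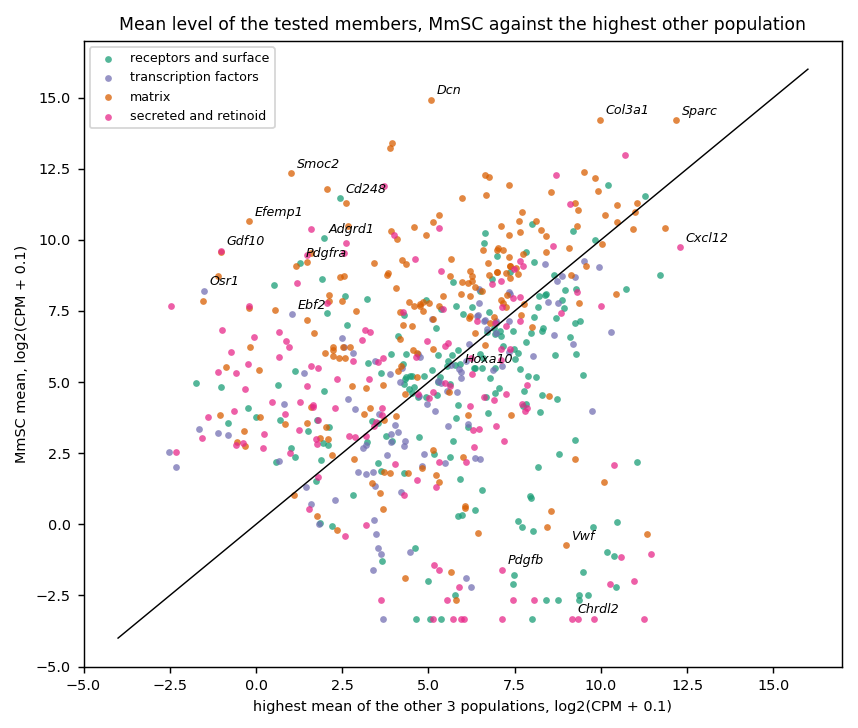
Each point is a tested gene of the lists, with its mean level in the 3 MmSC libraries on the vertical axis and the highest mean among the other 3 populations on the horizontal axis, both as log2(CPM + 0.1); the line marks equal levels. Dcn, Smoc2 and Efemp1 lie far above the line, and Chrdl2, Pdgfb and Vwf lie far below it.

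The promoter windows of 5 genes are shown as examples of the groups that set MmSCs apart: the marker receptor Pdgfra, the transcription factor Prrx1, the matrix gene Efemp1, the secreted factor Gdf10 and Myoc, a secreted glycoprotein outside the lists. Each window runs from 250 bases before to 50 bases after the RefSeq start, 5′ to 3′ on the gene's strand, from the RefSeq table of GRCm38.p6. They are chr5:75152001-75152300 (plus strand) for Pdgfra, chr1:163313601-163313900 (minus) for Prrx1, chr11:28852955-28853254 (plus) for Efemp1, chr14:33923337-33923636 (plus) for Gdf10 and chr1:162638900-162639199 (plus) for Myoc. Capitals mark matches, on either strand, to the TATA box (TATAAA), the CCAAT box, the GC box (GGGCGG), the AP-1 motif TGANTCA, the TEAD motif GGAATG and the homeodomain core TAATTA.
Pdgfra: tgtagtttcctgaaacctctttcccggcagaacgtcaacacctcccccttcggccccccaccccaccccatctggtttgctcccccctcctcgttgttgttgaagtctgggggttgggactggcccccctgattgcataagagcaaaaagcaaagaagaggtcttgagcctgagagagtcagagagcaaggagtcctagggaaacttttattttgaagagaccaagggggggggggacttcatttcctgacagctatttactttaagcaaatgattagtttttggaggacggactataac
Prrx1: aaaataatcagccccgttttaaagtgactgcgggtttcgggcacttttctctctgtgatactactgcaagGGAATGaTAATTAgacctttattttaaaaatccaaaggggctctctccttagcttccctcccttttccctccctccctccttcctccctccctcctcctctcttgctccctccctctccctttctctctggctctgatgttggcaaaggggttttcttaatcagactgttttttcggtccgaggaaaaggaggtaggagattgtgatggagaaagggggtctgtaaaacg
Efemp1: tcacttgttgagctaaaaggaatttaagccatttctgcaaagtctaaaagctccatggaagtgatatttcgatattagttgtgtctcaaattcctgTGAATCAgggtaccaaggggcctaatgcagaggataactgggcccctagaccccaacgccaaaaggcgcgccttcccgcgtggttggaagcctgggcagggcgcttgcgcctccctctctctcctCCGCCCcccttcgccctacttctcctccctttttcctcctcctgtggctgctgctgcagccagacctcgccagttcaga
Gdf10: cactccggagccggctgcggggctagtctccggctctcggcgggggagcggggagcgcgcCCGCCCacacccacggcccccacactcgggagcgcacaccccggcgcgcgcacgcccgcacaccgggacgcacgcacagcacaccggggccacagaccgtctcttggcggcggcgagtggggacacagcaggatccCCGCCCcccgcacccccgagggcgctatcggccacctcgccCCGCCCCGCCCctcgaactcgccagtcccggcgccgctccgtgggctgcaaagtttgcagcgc
Myoc: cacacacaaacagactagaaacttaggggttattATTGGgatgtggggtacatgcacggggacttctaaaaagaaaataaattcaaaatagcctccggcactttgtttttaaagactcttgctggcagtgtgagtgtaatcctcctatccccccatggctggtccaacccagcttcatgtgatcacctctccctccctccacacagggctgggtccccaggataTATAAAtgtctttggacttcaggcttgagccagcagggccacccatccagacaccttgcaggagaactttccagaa 
The Pdgfra window held no match to these 6 motifs. In the Prrx1 window GGAATG and TAATTA lay 1 base apart, at -180 and -173 from the start. Efemp1 had a TGANTCA match at -154 and a reverse-strand GC box at -29. The Gdf10 window, at 77.3% G and C, held 4 reverse-strand GC boxes, the last of which overlaps its neighbour by 1 base. In the Myoc window, with 48.7% G and C, a TATAAA stood at -26. TATAAA was found in 7.61% of the 13968 windows of all genes tested, 12.0% of the 334 windows of genes above each population by a log2 difference of at least 3, and 16.1% of the 217 windows of the listed genes above each population. The table matched 10879 of the 14830 genes tested, 268 of the 397 and 185 of the 274. The median ratio of observed to expected CpG was 0.725 over all windows and 0.465 for those 334. TGANTCA was in 5.46% of all windows and 10.5% of the 334, GGAATG in 12.4% and 16.8%, TAATTA in 2.67% and 3.89%, CCAAT in 37.0% and 35.3%, and GGGCGG in 59.5% and 48.8%. These are matches of letters only.

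Growth factor receptors of MmSCs were led by Pdgfra, and 11 of the 46 on the list (23.9%, against 9.18% of all genes) were above each population. Ntrk2, the receptor of brain-derived neurotrophic factor, had 276, 282 and 175 CPM in MmSCs, against 11, 13.5 and 3.06 CPM in CD31+ cells, its nearest population. The groups did not overlap, and the fitted difference was 4.71 ± 0.36 (edgeR adjusted p = 6.34e-08). Axl, a receptor of Gas6 that takes part in the uptake of dying cells, had 1200, 1110 and 1290 CPM in MmSCs and 113, 87.2 and 99.6 CPM in CD45+ cells, a difference of 3.58 ± 0.19 (adjusted p = 8e-10). Pdgfrb, the receptor shared with pericytes, had 253, 208 and 242 CPM in MmSCs and 33, 36.1 and 22 CPM in CD31+ cells (2.94 ± 0.36, adjusted p = 9.62e-06). Pdgfra exceeded Pdgfrb in MmSCs per length as well, at 145.9 ± 9.841 against 106.5 ± 10.85 TPM (CPM divided by union exon length and rescaled, SD, n = 3). The collagen receptor Ddr2 was above its nearest population, MuSCs, by 2.46 ± 0.29, Egfr by 1.49 ± 0.26 and Tgfbr2, a subunit of the TGF-beta receptor, was above CD45+ cells by 1.17 ± 0.19 (adjusted p = 9.23e-06, 0.000299 and 8.42e-05). Ror2, a receptor of Wnt5a, was low and also above each population, at 15.6, 11.8 and 13.6 CPM in the MmSC libraries.

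Other growth factor receptors were shared with another population or were higher there. Fgfr1 had 290, 301 and 343 CPM in MmSCs and 639, 607 and 609 CPM in MuSCs, and the MmSC libraries lay below every MuSC library (-0.99 ± 0.18, edgeR adjusted p = 0.000499). Ror1 was lower in MmSCs than in MuSCs by a wider margin (-2.19 ± 0.32, adjusted p = 5.97e-05). Tek, the angiopoietin receptor of endothelium, had 116, 120 and 96.7 CPM in MmSCs and 335, 268 and 338 CPM in CD31+ cells (-1.50 ± 0.35, adjusted p = 0.00278). Its MmSC libraries lay between the CD31+ libraries and the MuSC and CD45+ libraries, which reached at most 45.9 CPM. Eng, a co-receptor for TGF-beta ligands, had 420, 404 and 466 CPM in MmSCs and 3740, 2820 and 3440 CPM in CD31+ cells (-2.96 ± 0.21, adjusted p = 2.65e-08). The VEGF receptor Kdr had 1.38, 0.463 and 0.689 CPM in MmSCs against 936, 782 and 877 CPM in CD31+ cells, and Fgfr4, an FGF receptor of myogenic cells, had 0, 0 and 0.23 CPM in MmSCs against 684, 618 and 675 CPM in MuSCs. Kit had no count in the MmSC libraries. Bmpr1b and Epha7 did not pass the filter.

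Of 26 Wnt, Hedgehog and Notch receptors, 6 (23.1%) were above each population, against 9.18% of all genes. Above the mean were 15 (57.7%), against 26.1% of all genes, and 6 (23.1%) were below it, against 18.5%. Fzd2, a Wnt receptor, had 29.6, 29.9 and 29.4 CPM in MmSCs and 1.8, 0.355 and 2.23 CPM in MuSCs (4.20 ± 0.62, edgeR adjusted p = 0.000128), and Fzd1 was above MuSCs by 2.77 ± 0.57. The co-receptor Lrp5 was lower in MmSCs than in CD31+ cells (-2.24 ± 0.23, adjusted p = 1.43e-06), and Fzd6 had no count in MmSCs and 38.8, 30.5 and 29.4 CPM in CD31+ cells. Lgr5, the R-spondin receptor known from intestinal stem cells, had 21.3, 24.3 and 4.82 CPM in MmSCs, so that the third library was well below the others. It was above CD45+ cells by 4.44 ± 0.88 (adjusted p = 0.000599), and without the third CD45+ library by 5.35. In the Hedgehog pathway, Boc, a co-receptor, had 153, 173 and 171 CPM in MmSCs and 64.9, 63.8 and 61.5 CPM in MuSCs (1.38 ± 0.18, adjusted p = 2.09e-05). The other co-receptor Cdon had 113, 115 and 93.5 CPM in MmSCs and 275, 266 and 211 CPM in MuSCs, the opposite order (-1.23 ± 0.17, adjusted p = 3.21e-05). Ptch1, both a receptor and a target of the pathway, was likewise lower in MmSCs than in MuSCs (-1.66 ± 0.28, adjusted p = 0.000206). Notch1 had 14.4, 21.3 and 27.8 CPM in MmSCs, against 433, 373 and 316 CPM in MuSC, 390, 358 and 514 CPM in CD31+ and 130, 134 and 138 CPM in CD45+ libraries, and was below each population. Notch3 had 8.65, 6.94 and 7.35 CPM in MmSCs against 617, 648 and 564 CPM in MuSCs. Notch2 was the Notch receptor nearest to a shared level, at 342, 293 and 272 CPM in MmSCs and 474, 475 and 544 CPM in MuSCs (-0.72 ± 0.15, adjusted p = 0.00112). Fzd5, Fzd9, Fzd10 and Lgr6 did not pass the filter.

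Few cytokine receptors set MmSCs apart: 3 of 38 (7.89%) were above each population, close to the background of 9.18%. More were above the mean, 19 of the 38, against 26.1% of all genes. Below the mean were 9 (23.7%), against 18.5% of all genes. Compared singly, 26 were above MuSCs and 2 below them. Against CD31+ cells, 17 were higher and 12 lower, and against CD45+ cells 11 were higher and 19 lower. Il11ra1, the receptor chain for interleukin 11, had 922, 800 and 586 CPM in MmSCs and 236, 207 and 236 CPM in MuSCs (1.76 ± 0.22, edgeR adjusted p = 1.23e-05). Il1r1, the signalling receptor for interleukin 1, had 64.5, 63.2 and 60.9 CPM in MmSCs and 24, 17.7 and 19.3 CPM in MuSCs (1.62 ± 0.26, adjusted p = 0.000163). The third, the growth hormone receptor Ghr, was above CD31+ cells by 0.70 ± 0.20 (adjusted p = 0.0109) and lost the call without the first MmSC library (0.61, adjusted p = 0.0527). The shared signalling chain Il6st had 280, 267 and 226 CPM in MmSCs and 301, 306 and 281 CPM in CD31+ cells (-0.20 ± 0.14, adjusted p = 0.278), so no difference was detected there. Osmr, the oncostatin M receptor, was lower in MmSCs than in CD31+ cells, at 125, 159 and 167 against 435, 404 and 419 CPM (-1.48 ± 0.27, adjusted p = 0.000342). Ifngr1 had 1010, 882 and 1180 CPM in MmSCs and 1000, 855 and 872 CPM in CD45+ cells. The macrophage receptor Csf1r, at 4.5, 7.41 and 1.61 CPM in MmSCs against 2550, 2350 and 1470 CPM in CD45+ cells, was near absent.

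Among G protein-coupled, natriuretic and guidance receptors, 13 of 45 (28.9%) were above each population and 5 below each. The shares of all genes were 9.18% and 3.10%. Adgrd1, an adhesion receptor, had 1140, 1090 and 969 CPM in MmSCs, against 0.2, 1.06 and 0.406 CPM in MuSC, 5.07, 2.05 and 4.28 CPM in CD31+ and 0.247, 0.601 and 1.5 CPM in CD45+ libraries. The 3 MmSC libraries lay close together and far above the other 9, by 8.09 ± 0.29 over CD31+ cells (edgeR adjusted p = 5.91e-11). Agtr1a, the angiotensin II receptor, had 206, 176 and 131 CPM in MmSCs and 3.96, 8.22 and 0 CPM in CD31+ cells (5.38 ± 0.53, adjusted p = 9.38e-07, and 6.29 without the second CD31+ library). Plxdc2, a plexin-domain receptor, had 918, 906 and 996 CPM in MmSCs and 125, 77.3 and 92.5 CPM in MuSCs (3.25 ± 0.31, adjusted p = 9.35e-07). Procr, the protein C receptor, known on endothelium as well as on stromal progenitors, had 474, 344 and 292 CPM in MmSCs and 56.6, 61.6 and 38.2 CPM in CD31+ cells (2.82 ± 0.28, adjusted p = 8.72e-07). Lpar1, a receptor of lysophosphatidic acid, was above MuSCs by 1.72 ± 0.22, and the sphingosine receptor S1pr2 was above CD45+ cells by 1.36 ± 0.24. In contrast, S1pr1 had 0.173, 0.694 and 0.23 CPM in MmSCs against 1540, 1040 and 1430 CPM in CD31+ cells, and Cxcr4, the receptor of Cxcl12, had 0, 0 and 0.919 CPM in MmSCs. Both were below each population, as were Ptger4, Lpar6 and Plxnd1. Nrp1, a co-receptor of semaphorins and VEGF, was intermediate, at 317, 325 and 282 CPM in MmSCs and 1750, 1480 and 1840 CPM in CD31+ cells (-2.45 ± 0.27, adjusted p = 3.44e-06).

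**Figure D3:**
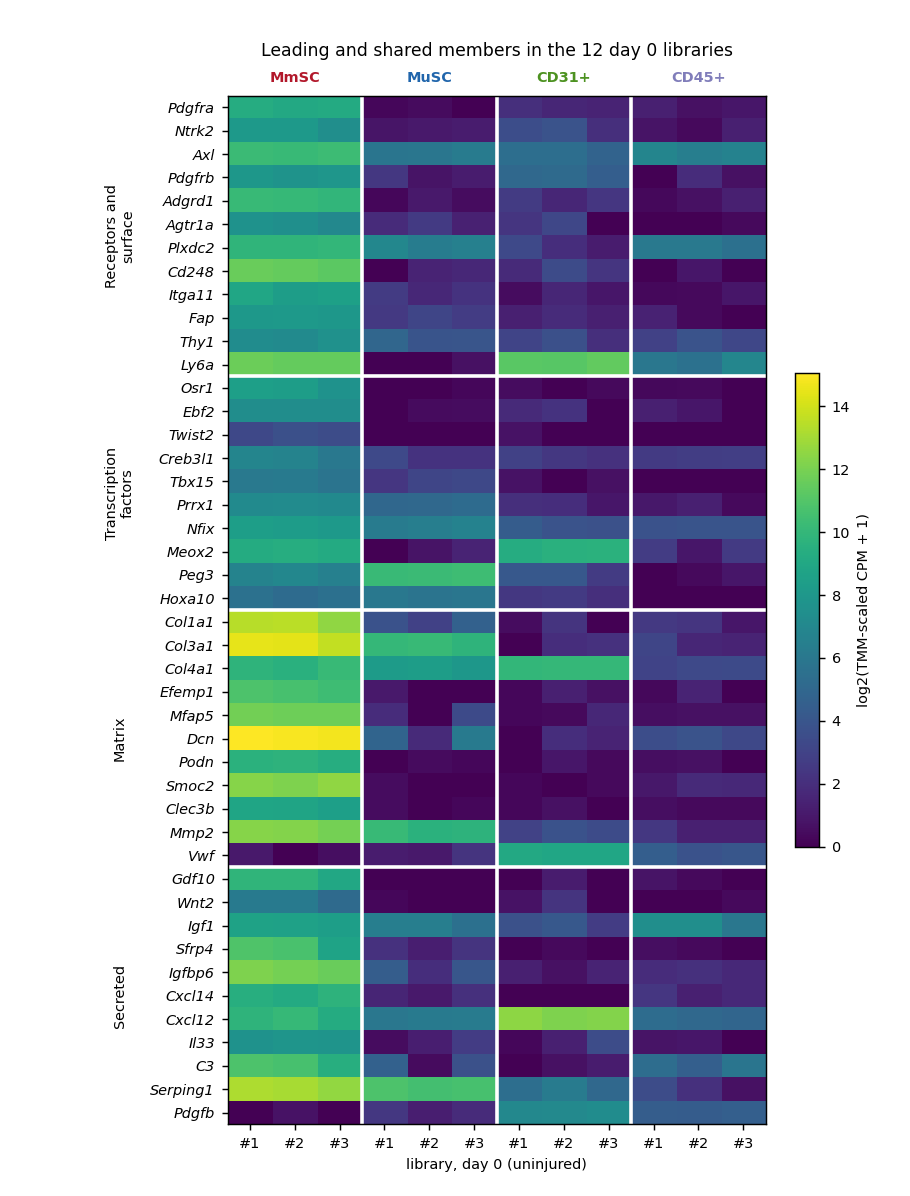
Colour gives log2(CPM + 1) of 44 listed genes (rows, grouped by role) in the 12 libraries (columns, MmSC, MuSC, CD31+ and CD45+, 3 each). Pdgfra, Cd248, Dcn and Smoc2 are bright in the 3 MmSC columns, and Vwf and Pdgfb are dark there.

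Of 39 surface and adhesion proteins, 16 (41.0%, against 9.18% of all genes) were above each population, led by Cd248. This stromal glycoprotein, also called endosialin, had 3100, 2910 and 2430 CPM in MmSCs, against 0, 1.77 and 2.23 CPM in MuSC, 2.42, 9.68 and 3.98 CPM in CD31+ and 0, 0.902 and 0 CPM in CD45+ libraries. The difference was 9.07 ± 0.50 over CD31+ cells (edgeR adjusted p = 2.01e-09), and 9.86 without the second CD31+ library. Its length-scaled level of 2683 ± 198.6 TPM exceeded that of Pdgfra (145.9 ± 9.841 TPM, SD, n = 3 each). Itga11, an integrin chain that binds collagen, had 471, 326 and 381 CPM in MmSCs and 5.21, 2.13 and 3.65 CPM in MuSCs (6.66 ± 0.30, adjusted p = 6.84e-10). Fap, a surface protease of fibroblasts, had 263, 265 and 246 CPM in MmSCs and 4.61, 7.8 and 5.28 CPM in MuSCs (5.49 ± 0.31, adjusted p = 4.73e-09). Thy1 was above MuSCs by 3.06 ± 0.36, the peptidase Dpp4 was above CD45+ cells by 2.22 ± 0.24 and the ectonucleotidase Entpd2 was above MuSCs by 2.56 ± 0.34.

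Some genes encode proteins that are commonly used to sort muscle cells. Since the labels do not give the MmSC and MuSC gates, the levels of these genes, and of Pdgfra, may have been set by the sort. Cd34 had 4090, 3850 and 3670 CPM in MmSCs and 1080, 1300 and 1190 CPM in CD31+ cells (1.70 ± 0.18, edgeR adjusted p = 1.4e-06). Ly6a, which encodes Sca-1, had 3230, 2880 and 2830 CPM in MmSCs and 2360, 2230 and 2780 CPM in CD31+ cells, and this difference did not pass the test (0.28 ± 0.27, adjusted p = 0.419). It was near 0 in MuSCs, with 0, 0 and 0.609 CPM, a ratio of 12800 by counts (95% counting interval 4370 to 61900). Vcam1, used to sort satellite cells, had 60.4, 71 and 60.6 CPM in MmSCs and 696, 583 and 597 CPM in MuSCs (-3.29 ± 0.22, adjusted p = 2.52e-08), and Ncam1 was also lower than in MuSCs (-4.22 ± 0.34). Podoplanin, Pdpn, had 443, 442 and 419 CPM in MmSCs and 395, 448 and 361 CPM in MuSCs, overlapping ranges. Mcam, a marker of pericytes and endothelium, had 0, 0.231 and 0 CPM in MmSCs and was below each population.

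Transcription factors of mesenchymal and developmental programmes were above each population in 22 of 64 cases (34.4%, against 9.18% of all genes). In the same list 1 of the 64, Runx1, was below the mean. Osr1, a zinc finger factor of the fibroblast lineage in limb development, had 362, 325 and 199 CPM in MmSCs and at most 0.44 CPM in any other library. With 3 counts in the CD31+ libraries together, its ratio over CD31+ cells was 1130 (95% counting interval 386 to 5480). The related Osr2 had 72.3, 79.1 and 71.4 CPM in MmSCs and 7.21, 4.26 and 5.68 CPM in MuSCs (3.66 ± 0.29, edgeR adjusted p = 5.46e-07). Ebf2, known from preadipocytes, had 166, 165 and 168 CPM in MmSCs and 2.42, 3.52 and 0 CPM in CD31+ cells (6.33 ± 0.48, adjusted p = 5.08e-08, and 6.93 without the second CD31+ library). The basic helix-loop-helix factors Twist1 and Twist2 were low, at 4.15, 6.25 and 6.66 and 8.65, 11.8 and 10.1 CPM in the MmSC libraries, and near 0 elsewhere: Twist2 had no count in MuSC or CD45+ libraries, so that it was at least 42.6-fold and at least 35.8-fold higher in MmSCs (floor of 3 counts over a group's 3 libraries). The ratio of Twist2 over CD31+ cells, which had 3 counts, was 37.5 (12.6 to 184).

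The T-box factors Tbx15 and Tbx18 and the homeobox factor Prrx1 were also above each population. Tbx15 had 66.2, 72.7 and 54.9 CPM in MmSCs and 4.21, 7.8 and 8.72 CPM in MuSCs (3.23 ± 0.34, edgeR adjusted p = 8.35e-06), and Tbx18 was above MuSCs by 3.37 ± 0.58, or 4.11 without the first MuSC library. Prrx1, the paired-related homeobox factor of limb mesenchyme, had 148, 152 and 140 CPM in MmSCs and 32, 32.6 and 37.5 CPM in MuSCs (2.10 ± 0.22, adjusted p = 2.47e-06). The MmSC values were close to each other and above all MuSC values. Nfix had 340, 321 and 277 CPM in MmSCs and 74.5, 86.2 and 103 CPM in MuSCs (1.83 ± 0.17, adjusted p = 7.18e-07). Creb3l1, an endoplasmic reticulum factor that drives collagen genes, had 113, 105 and 63.9 CPM in MmSCs and 9.01, 3.55 and 3.65 CPM in MuSCs (4.07 ± 0.35, adjusted p = 3.52e-07, and 4.75 without the first MuSC library). Klf4, a zinc finger factor, was above CD45+ cells by 1.30 ± 0.16, and Tcf7l2, a Wnt effector used as a marker of muscle connective tissue, was above CD31+ cells by 0.82 ± 0.14.

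Other factors known from MmSCs were shared. Meox2, a mesoderm homeobox factor, had 622, 655 and 579 CPM in MmSCs and 650, 758 and 784 CPM in CD31+ cells (-0.24 ± 0.27, edgeR adjusted p = 0.502), and Ebf1 had 546, 556 and 617 CPM in MmSCs and 358, 295 and 351 CPM in CD31+ cells (0.78 ± 0.44, adjusted p = 0.165). Neither difference passed the test, although the 3 Ebf1 values of MmSCs lay above the CD31+ values. MuSCs were higher for the imprinted gene Peg3, with 106, 126 and 91.4 CPM in MmSCs and 1190, 1240 and 1320 CPM in MuSCs (-3.54 ± 0.28, adjusted p = 1.7e-07), and for the Hedgehog effector Gli2 (-1.58 ± 0.24). Gli3, by contrast, was higher in MmSCs than in each population, by 2.30 ± 0.34 over MuSCs. Heyl, a Notch target, had 13.8, 13 and 20.7 CPM in MmSCs and 984, 826 and 751 CPM in MuSCs. Tcf21, a fibroblast marker in heart and other organs, had no count in the MmSC libraries, and the tendon factor Scx had 0, 0.231 and 0 CPM. Neither was tested.

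Hox genes, which record position along the body, gave no gene above each population among 39, of which 20 were tested. They made up 0.0133 to 0.0138% of counts in MmSC libraries, against 0.0321 to 0.0341% in MuSC, 0.0295 to 0.0313% in CD31+ and 0.000182 to 0.000662% in CD45+ libraries. Hoxa10, of the hindlimb set, had 48.8, 38 and 45.9 CPM in MmSCs, 63.5, 53.9 and 59 CPM in MuSCs and 4.4, 4.99 and 3.06 CPM in CD31+ cells, with no count in CD45+ cells. Its difference from MuSCs did not pass the test (-0.41 ± 0.20, edgeR adjusted p = 0.121), and it was at least 160-fold higher than in CD45+ cells. Hoxc9 was lower in MmSCs than in MuSCs, at 24, 26.8 and 25 against 66.1, 46.5 and 58.2 CPM (-1.17 ± 0.25, adjusted p = 0.00205). Hoxb7 showed a different pattern, with 0.519, 0 and 0 CPM in MmSCs and 76.6, 60.7 and 64.9 CPM in CD31+ cells. Hoxa7 had 8.47, 15 and 10.3 CPM in MmSCs and 66.1, 71.9 and 74 CPM in CD31+ cells.

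**Figure D4:**
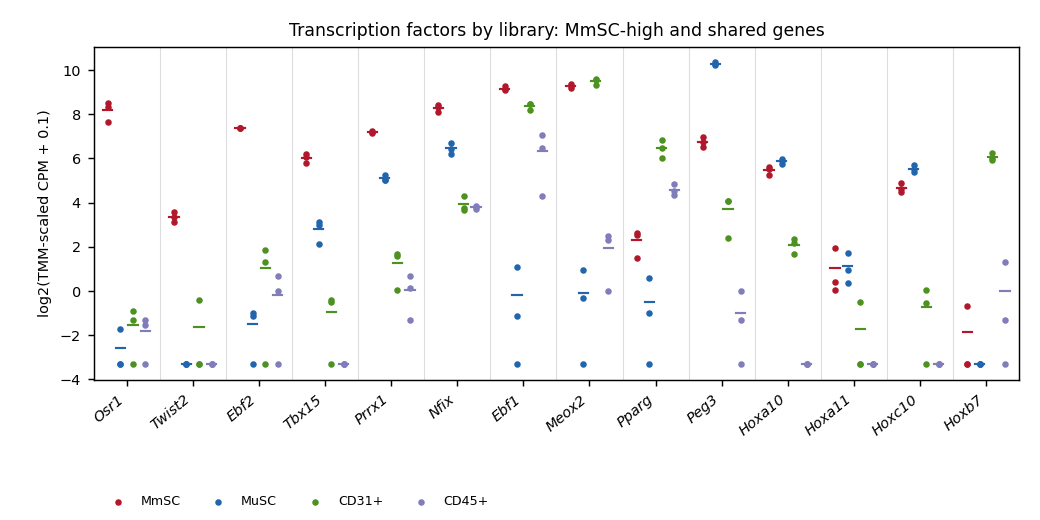
Each point is a library and each bar the mean of 3 libraries, as log2(CPM + 0.1) on the vertical axis, for 14 transcription factors in MmSC, MuSC, CD31+ and CD45+ cells. Osr1 and Twist2 are near the floor outside MmSCs, Meox2 is level with CD31+ cells, Peg3 is higher in MuSCs, and Hoxb7 is higher in CD31+ cells.

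Of 30 nuclear receptors, 4 (13.3%) were above each population, with differences under 2 log2 units. That share was near the 9.18% of all genes. Below the mean were 5 (16.7%), against 18.5% of all genes, and 1 was below each population. Rora was above MuSCs by 0.72 ± 0.15 (edgeR adjusted p = 0.00161), the oxysterol receptor Nr1h3 was above MuSCs by 1.25 ± 0.27 and the thyroid hormone receptor Thrb was above CD45+ cells by 1.75 ± 0.50. None of the 4 calls held in edgeR's glmTreat test against a 2-fold difference. Pparg, which drives fat cell formation, had 5.71, 6.02 and 2.76 CPM in MmSCs and 89, 65.1 and 114 CPM in CD31+ cells (-4.19 ± 0.37, adjusted p = 2.44e-07). The oestrogen receptor Esr1 was lower in MmSCs than in MuSCs, at 101, 115 and 86.8 against 324, 433 and 444 CPM (-1.98 ± 0.17, adjusted p = 4.01e-07).

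Matrix genes took a large part of MmSC counts. The 218 genes of the 5 matrix lists took 17.9%, 18.0% and 15.6% of counts in the MmSC libraries, against 2.43 to 2.59% in MuSC, 2.79 to 2.99% in CD31+ and 0.618 to 0.692% in CD45+ libraries. Collagens alone took 3.60 to 5.09% in MmSCs, 0.322 to 0.405% in MuSCs and 0.324 to 0.375% in CD31+ cells. Col1a1, the main chain of type I collagen, had 11200, 11500 and 5910 CPM in MmSCs and 13, 6.38 and 24.3 CPM in MuSCs (9.30 ± 0.60, edgeR adjusted p = 1.76e-08, and 9.93 without the third MuSC library). The third MmSC library was the lowest of its group and still far above the MuSC libraries. Col3a1 of type III collagen had 22600, 21800 and 13100 CPM in MmSCs and 1020, 1110 and 875 CPM in MuSCs (4.26 ± 0.41, adjusted p = 1e-06). Per length, Col3a1 was at 4830 ± 1141 TPM and Col1a1 at 3595 ± 1077 TPM in MmSCs (SD, n = 3). The beaded-filament chain Col6a3 was above CD31+ cells by 6.39 ± 0.46, and Col14a1, which sits on fibril surfaces, above CD45+ cells by 5.22 ± 0.28. Of the type V chains, Col5a1 was above MuSCs, its nearest population, by 2.84 ± 0.23, Col5a2 by 3.42 ± 0.26 and Col5a3 by 2.50 ± 0.29.

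Basement membrane collagens divided by chain. Col4a1 had 882, 762 and 1140 CPM in MmSCs and 1010, 1060 and 1040 CPM in CD31+ cells, and did not pass the test (-0.16 ± 0.16, edgeR adjusted p = 0.414). The minor chains Col4a3, Col4a4 and Col4a5, known from kidney and lung membranes, were above each population, with Col4a4 at 77.1, 82.8 and 49.6 CPM in MmSCs and a difference of 3.99 ± 0.47 over MuSCs (adjusted p = 8.55e-06). Col4a5 had 56.2, 64.8 and 18.6 CPM in MmSCs, again with the third library lowest, and a difference of 6.61 ± 0.69 over CD31+ cells. Col4a3 was above CD31+ cells by 3.65 ± 0.36, and by 4.28 without the first CD31+ library. Of the 44 collagens, 11 did not pass the filter, such as Col2a1 of cartilage.

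Of the fibre assembly and cross-linking genes, 36 of 38 passed the filter and all 36 were above the mean. Efemp1, a fibulin-family glycoprotein, had 1860, 1620 and 1350 CPM in MmSCs, against 1, 0 and 0 CPM in MuSC, 0.22, 1.47 and 0.612 CPM in CD31+ and 0.247, 1.8 and 0 CPM in CD45+ libraries. Its nearest difference was 11.07 ± 0.50 (edgeR adjusted p = 3.26e-10), or 11.97 without the second CD31+ library. The microfibril gene Mfap5 had 3730, 3390 and 3410 CPM in MmSCs and 2.8, 0 and 9.33 CPM in MuSCs (9.59 ± 0.56, adjusted p = 6.53e-09, and 11.01 without the third MuSC library). Fbn1, the main fibrillin, had 3140, 2990 and 2960 CPM in MmSCs and 90.3, 93.3 and 118 CPM in MuSCs (4.91 ± 0.24, adjusted p = 1.5e-09). The procollagen C-proteinase enhancer Pcolce had 5600, 5090 and 4230 CPM in MmSCs and 95.1, 122 and 82.6 CPM in CD31+ cells (5.64 ± 0.37, adjusted p = 1.3e-08). Cross-linking enzymes were uneven: Lox was above CD31+ cells by 5.07 ± 0.65 and Loxl1 above MuSCs by 1.73 ± 0.26. Elastin, Eln, had 470, 493 and 397 CPM in MmSCs and 164, 125 and 165 CPM in CD31+ cells (1.58 ± 0.21, adjusted p = 2.15e-05). Ltbp1, Ltbp3, Ltbp4, Emilin1, Plod1 and Plod2 were above the mean and not above each population.

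Other small leucine-rich proteoglycans than Dcn varied. Lum, lumican, had 2870, 2520 and 2170 CPM in MmSCs and 13.2, 1.06 and 3.85 CPM in MuSCs (8.57 ± 0.58, edgeR adjusted p = 3.09e-08, and 9.88 without the first MuSC library). Podn, podocan, had 793, 841 and 669 CPM in MmSCs and 0.495, 0.601 and 0 CPM in CD45+ cells (10.89 ± 0.38, adjusted p = 2.75e-11). Biglycan, Bgn, was less particular, with 5240, 4950 and 5710 CPM in MmSCs and 727, 656 and 814 CPM in MuSCs (2.86 ± 0.30, adjusted p = 2.41e-06). Per length, Dcn was at 13260 ± 362.6 TPM and Lum at 2556 ± 212.5 TPM (SD, n = 3). Fmod, a tendon proteoglycan, had 95.5, 367 and 77.4 CPM in MmSCs and 0.601, 0 and 85.4 CPM in MuSCs, so that the third MuSC library fell within the MmSC range (difference 2.59, adjusted p = 0.0759). Without that library the difference was 8.83 (adjusted p = 0.000154). Perlecan, Hspg2, was shared with CD31+ cells, at 1440, 1530 and 1790 CPM in MmSCs and 1410, 1400 and 1430 CPM in CD31+ cells. Sdc4 was lower in MmSCs than in MuSCs (-2.34 ± 0.22), and Srgn, the proteoglycan of leukocyte granules, was below each population at 6.4, 5.09 and 2.99 CPM.

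The matrix glycoproteins were led by Smoc2, a calcium-binding protein that modulates growth factor signalling. It had 5040, 4500 and 6080 CPM in MmSCs, against 0.401, 0 and 0 CPM in MuSC, 0.22, 0 and 0.306 CPM in CD31+ and 0.989, 2.41 and 2.39 CPM in CD45+ libraries (11.41 ± 0.33, edgeR adjusted p = 7.08e-12). Clec3b, tetranectin, had 463, 448 and 363 CPM in MmSCs, and was above CD45+ cells by 10.04 ± 0.32. Postn had 587, 776 and 275 CPM in MmSCs, a difference of 8.03 ± 0.45 over CD31+ cells, and the third library was again lowest. Pi16, a marker of adventitial fibroblasts, had 2340, 2190 and 1140 CPM in MmSCs and 29.9, 29.8 and 59.8 CPM in CD45+ cells (5.57 ± 0.33, adjusted p = 2.69e-09). Mgp, an inhibitor of calcification, had 2840, 2810 and 2930 CPM in MmSCs and 53.3, 71.9 and 61.8 CPM in CD31+ cells (5.52 ± 0.83). Cilp, of cartilage and fibrous tissue, had 990, 955 and 1160 CPM in MmSCs and 0, 0.709 and 50.1 CPM in MuSCs, a difference of 5.85 ± 0.94 that became 11.86 without the third MuSC library. That library also stood apart in tendon markers, and the part of these in the result was not tested.

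Several abundant glycoproteins were shared to a degree. Sparc had 23000, 20700 and 13200 CPM in MmSCs and 4290, 4650 and 5000 CPM in CD31+ cells (2.03 ± 0.21, edgeR adjusted p = 1.5e-06), and per length it was at 12370 ± 2799 TPM in MmSCs (SD, n = 3). Fibronectin, Fn1, had 3880, 3900 and 2230 CPM in MmSCs and 1070, 891 and 913 CPM in CD45+ cells (1.80 ± 0.23, adjusted p = 1.1e-05). Tgfbi had 2310, 2230 and 1460 CPM in MmSCs and 2230, 2140 and 1750 CPM in CD45+ cells, overlapping ranges. Laminin chains differed: Lama2, the chain of muscle basement membrane, had 480, 483 and 578 CPM in MmSCs and 175, 190 and 196 CPM in MuSCs (1.46 ± 0.17, adjusted p = 7.64e-06), while Lama5 had 1.56, 0.463 and 1.84 CPM in MmSCs and 425, 319 and 371 CPM in CD31+ cells. Sparcl1 was lower than in CD31+ cells (-1.41 ± 0.33), and Vwf was below each population.

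Proteases and their inhibitors were above each population in 30 of 47 cases (63.8%, against 9.18% of all genes). Ctsk, a collagen-degrading cathepsin, had 888, 877 and 476 CPM in MmSCs and 2.47, 1.2 and 5.09 CPM in CD45+ cells (7.99 ± 0.46, edgeR adjusted p = 1.91e-09, and 8.66 without the third CD45+ library). Serpinf1, which encodes the anti-angiogenic factor PEDF, had 5590, 5120 and 3620 CPM in MmSCs and 80.5, 121 and 122 CPM in MuSCs (5.47 ± 0.29, adjusted p = 2.95e-09). Mmp2, gelatinase A, had 5160, 4860 and 3810 CPM in MmSCs and 1110, 778 and 850 CPM in MuSCs (2.33 ± 0.24, adjusted p = 1.74e-06), and Mmp14, which activates it, was above MuSCs by 2.55 ± 0.24. The inhibitor Timp2 was above MuSCs by 2.62 ± 0.31. Timp3 had 492, 479 and 327 CPM in MmSCs and 621, 441 and 623 CPM in CD31+ cells, overlapping ranges, and Timp4 had 0.692, 1.39 and 0 CPM in MmSCs against 2320, 2000 and 3450 CPM in CD31+ cells. Mmp9, the gelatinase of leukocytes, had 0, 0 and 2.53 CPM in MmSCs and 466, 226 and 355 CPM in CD45+ cells.

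Of 65 growth factor genes, 28 (43.1%, against 9.18% of all genes) were above each population. Gdf10, a relative of bone morphogenetic protein 3, had 922, 933 and 509 CPM in MmSCs, against 0, 0 and 0 CPM in MuSC, 0, 1.17 and 0 CPM in CD31+ and 0.742, 0.301 and 0 CPM in CD45+ libraries. It was higher by 10.93 ± 0.54 (edgeR adjusted p = 2.59e-09), or 12.10 without the first CD45+ library. Wnt5a, a ligand of non-canonical Wnt signalling, had 55.2, 54.8 and 39.7 CPM in MmSCs, and was above MuSCs by 6.07 ± 0.50. Wnt2 had 72.3, 69.7 and 35.6 CPM in MmSCs and 0.661, 3.81 and 0 CPM in CD31+ cells (5.33 ± 0.63, and 7.22 without the second CD31+ library). Fgf10, the mesenchymal ligand of Fgfr2, had 15.2, 22.2 and 9.65 CPM in MmSCs, and was above CD31+ cells by 4.79 ± 0.74. Inhba, the activin A subunit, had 66.8, 58.8 and 137 CPM in MmSCs, with the third library highest, and was above CD45+ cells by 5.61 ± 0.70. Igf1, which drives myofibre growth, had 407, 391 and 342 CPM in MmSCs and 173, 173 and 61 CPM in CD45+ cells (1.48 ± 0.35, adjusted p = 0.0024).

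Ligands of the PDGF and BMP families differed among themselves. Pdgfa, a ligand of PDGF receptor alpha, had 12.1, 10.6 and 9.65 CPM in MmSCs and 133, 145 and 98.2 CPM in MuSCs (-3.53 ± 0.22, edgeR adjusted p = 1.35e-08). Pdgfb had 0, 0.694 and 0 CPM in MmSCs and 129, 136 and 157 CPM in CD31+ cells and was below each population. Pdgfd had 22.5, 19.7 and 10.8 CPM in MmSCs and 74.9, 66 and 78.9 CPM in CD31+ cells (-2.04 ± 0.31, adjusted p = 6.98e-05), with 2 counts in MuSC and 1 in CD45+ libraries. Bmp4 had 173, 156 and 184 CPM in MmSCs and 517, 440 and 419 CPM in MuSCs (-1.42 ± 0.21, adjusted p = 7.03e-05), and Bmp6 was lower in MmSCs than in CD31+ cells (-2.54 ± 0.28). Bmp2, Bmp3, Bmp5 and Bmp7 were instead above each population. Bmp5 had 35.5, 38.2 and 46.6 CPM in MmSCs and 0.22, 1.17 and 0.306 CPM in CD31+ cells (6.13 ± 0.57, adjusted p = 1.56e-06, and 7.17 without the second CD31+ library). Bmp7 was above CD45+ cells by 3.40 ± 0.55 (4.01 without the first CD45+ library) and Bmp3 above CD31+ cells by 3.89 ± 0.72. Bmp2 was above CD45+ cells by 1.79 ± 0.62, was 3.11 without the first CD45+ library and lost the call without the second CD45+ library (1.45, adjusted p = 0.0837), the third CD45+ library (1.47, adjusted p = 0.0647) or the third MmSC library (1.32, adjusted p = 0.126). Tgfb1 had 1.9, 1.62 and 5.05 CPM in MmSCs and 27, 24.1 and 25.1 CPM in CD45+ cells, while Tgfb2 had 127, 121 and 153 CPM in MmSCs and 105, 135 and 124 CPM in MuSCs, overlapping ranges. Hgf, a ligand that activates satellite cells, was low, with 5.01, 6.94 and 9.19 CPM in MmSCs and 4.45, 1.2 and 4.19 CPM in CD45+ cells (1.08 ± 0.61, adjusted p = 0.146). Vegfa had 1.21, 4.17 and 2.53 CPM in MmSCs and did not pass the filter, and neither did Mstn.

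Extracellular antagonists of growth factors were above each population in 19 of 33 cases (57.6%, against 9.18% of all genes). In this list 3 of the 33 (Grem1, Nog and Igfbp1) had no count in the 12 libraries. Follistatin, Fst, which binds activin and myostatin, had 142, 252 and 219 CPM in MmSCs and was above CD31+ cells by 8.09 ± 0.38 (edgeR adjusted p = 3.34e-09). Secreted frizzled-related proteins, which bind Wnts, were uneven among the MmSC libraries: Sfrp4 had 1880, 1680 and 418 CPM and Sfrp2 1270, 1310 and 246 CPM. Sfrp4 had 3.4, 1.42 and 3.85 CPM in MuSCs, so that even the third MmSC library lay far above them (8.73 ± 0.58, adjusted p = 2.37e-08). Dkk2, another Wnt antagonist, had 427, 453 and 202 CPM in MmSCs, and was above CD31+ cells by 7.32 ± 0.57. Igfbp6, which binds IGF-II, had 4480, 3910 and 3160 CPM in MmSCs and 20.6, 2.84 and 15.4 CPM in MuSCs (8.13 ± 0.44, adjusted p = 3.2e-09). Fstl1 had 5180, 5050 and 4590 CPM in MmSCs and 409, 437 and 406 CPM in MuSCs (3.56 ± 0.16, adjusted p = 5.36e-10). Chrdl2, a BMP antagonist, had no count in MmSCs and 688, 484 and 558 CPM in MuSCs, whereas its relative Chrdl1 had 133, 147 and 48.2 CPM in MmSCs and 0.601, 0 and 3.85 CPM in MuSCs.

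**Figure D5:**
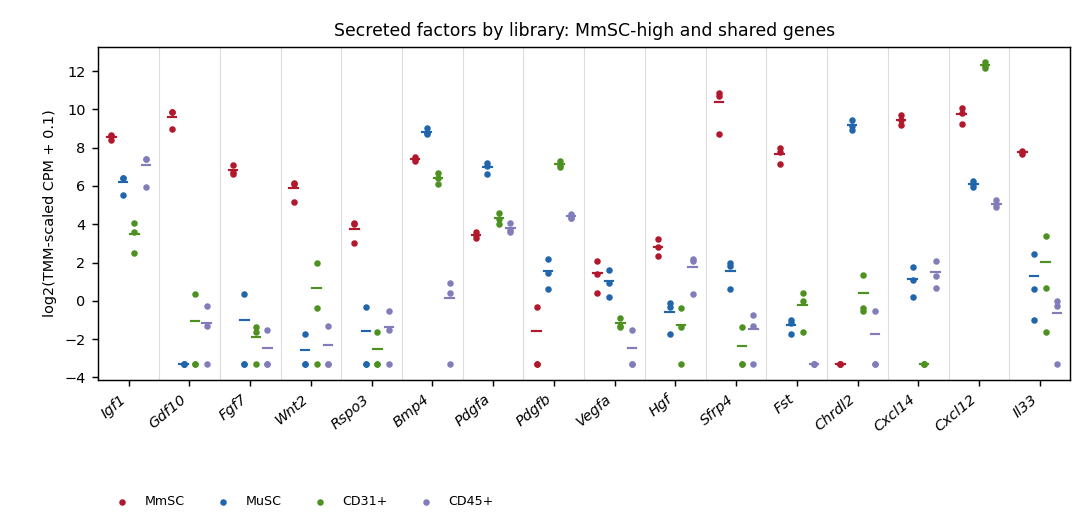
Each point is a library and each bar the mean of 3 libraries, as log2(CPM + 0.1) on the vertical axis, for 16 genes of secreted proteins in MmSC, MuSC, CD31+ and CD45+ cells. Gdf10, Sfrp4 and Cxcl14 are highest in MmSCs, Pdgfa and Bmp4 in MuSCs, and Pdgfb and Cxcl12 in CD31+ cells.

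Cytokines and chemokines gave 9 of 51 (17.6%) above each population, against 9.18% of all genes. Below the mean were 8 (15.7%), against 18.5% of all genes. Compared with CD45+ cells alone, 11 were higher and 22 lower. Cxcl14 had 697, 579 and 836 CPM in MmSCs and 4.2, 1.5 and 2.39 CPM in CD45+ cells (7.97 ± 0.32, edgeR adjusted p = 4.21e-10). Ccl11, eotaxin, which attracts eosinophils, had 647, 545 and 1020 CPM in MmSCs and 4.61, 5.67 and 6.9 CPM in MuSCs (7.00 ± 0.34, adjusted p = 1.28e-09). Il33, an alarmin that acts on regulatory T cells in muscle, had 207, 226 and 220 CPM in MmSCs and 0.22, 1.47 and 10.4 CPM in CD31+ cells. The third CD31+ library held most of the CD31+ counts, and the difference was 5.86 ± 0.67 with it (adjusted p = 4.63e-06) and 8.10 without it. Both ligands of the macrophage receptor Csf1r were above each population: Csf1 had 209, 203 and 165 CPM in MmSCs and 40.3, 44.9 and 43.1 CPM in CD31+ cells (2.17 ± 0.23, adjusted p = 2.38e-06), and Il34 was above CD31+ cells by 1.80 ± 0.45, or 2.57 without the first CD31+ library. Cxcl12, a stromal chemokine, had 892, 1070 and 611 CPM in MmSCs and 5710, 4550 and 4880 CPM in CD31+ cells (-2.56 ± 0.20, adjusted p = 6.34e-08). Il1b had no count in MmSCs and 848, 331 and 1490 CPM in CD45+ cells. Il6, at 0, 0.694 and 0.689 CPM in the resting MmSC libraries, did not pass the filter, and Csf3 had no count in the 12 libraries.

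Of the complement list, 8 of 20 were above each population. C1s1, a protease of the first component, had 1340, 1250 and 913 CPM in MmSCs, and was above CD31+ cells by 6.19 ± 0.40 (edgeR adjusted p = 9.94e-09). C3, the central component, had 1810, 1640 and 700 CPM in MmSCs and 39.8, 22.9 and 56.8 CPM in CD45+ cells (5.12 ± 0.62, adjusted p = 5.43e-06). The C1 inhibitor Serping1 had 9430, 8700 and 6370 CPM in MmSCs and 1810, 1490 and 1660 CPM in MuSCs (2.31 ± 0.38, adjusted p = 0.000205). C7, a component of the terminal complex, had 242, 256 and 109 CPM in MmSCs and no count in MuSC or CD31+ libraries, and with 1 count in CD45+ cells its ratio over them was 2210 (95% counting interval 396 to 87300). The recognition chains C1qa, C1qb and C1qc were instead highest in CD45+ cells, with C1qa at 0, 0.463 and 0 CPM in MmSCs and 2520, 2360 and 1050 CPM in CD45+ cells. Among genes of retinoid handling, 5 of 14 (35.7%, against 9.18% of all genes) were above each population. Aldh1a2, which makes retinoic acid, had 291, 267 and 480 CPM in MmSCs and 196, 65 and 82 CPM in CD45+ cells (1.59 ± 0.36, adjusted p = 0.00215, and 2.24 without the first CD45+ library). Aldh1a1 had 280, 281 and 206 CPM in MmSCs and 184, 190 and 234 CPM in MuSCs, overlapping ranges.

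Outside the lists, the genes with the widest gaps were led by Myoc, myocilin, a secreted glycoprotein known from the eye. It had 6640, 5990 and 4520 CPM in MmSCs and 6.41, 0.709 and 1.83 CPM in MuSCs (10.75 ± 0.51, edgeR adjusted p = 9.79e-10, and 12.02 without the first MuSC library). At 6828 ± 965.9 TPM per length it exceeded Col1a1 (3595 ± 1077 TPM, SD, n = 3 each). Dpep1, a membrane dipeptidase, had 1900, 1480 and 1210 CPM in MmSCs, and was above MuSCs by 9.99 ± 0.38 (and 10.97 without the third MuSC library). Apod, a lipid carrier, had 1350, 1230 and 1480 CPM in MmSCs and was above CD45+ cells by 8.46 ± 0.39. Srpx, of the extracellular matrix, had 833, 681 and 474 CPM in MmSCs and was above MuSCs by 9.02 ± 0.44. Cpz, a carboxypeptidase, had 417, 495 and 65.9 CPM in MmSCs, with the third library far below the others, and was above CD31+ cells by 9.72 ± 0.93 (adjusted p = 2.14e-06). Lrrn4cl, Pla1a, Sema3c, Serpina3c and Amy1 completed the first 10 genes. Serpina3c and Amy1 have near-identical copies in the genome, so their reads may be split among copies. At the other end, Chd7, a chromatin remodeller, had 0.346, 0.231 and 0.919 CPM in MmSCs and 168, 170 and 178 CPM in MuSCs, and it was below each population. Its difference from MuSCs, the widest of its 3, was -8.38 ± 0.31 (adjusted p = 1.97e-10), and -9.03 without the third MmSC library.

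The 3 MmSC libraries were not equal. Of 871 genes above each population with a mean of at least 50 CPM in MmSCs, the third library was the lowest in 489, the first in 123 and the second in 259. For most of these genes the gap was small, with a median ratio of 1.25 between the highest and lowest MmSC library. The ranking was not made over all genes tested. In 52 of the 871 the MmSC libraries spread over at least 2-fold. The third library was lowest in 39 of them, such as Cpz, Sfrp4, Mmp3 and C7, and highest in 12, such as Prg4.

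Another experiment of the series holds 2 libraries of MmSCs from uninjured muscle of C57BL/6J mice injected intraperitoneally with PBS. They did not enter the fit and are described here with no test, since experiment and injection cannot be told apart. Of 258 listed genes above each population with at least 10 CPM in MmSCs, 251 were above all 9 libraries of the other populations in both PBS libraries. These genes had been selected as higher than the same 9 libraries, so that count was in large part set by the choice and is no independent support. The median log2 difference of PBS from untreated MmSCs was -0.04 over the 258. For single genes the levels differed: Pdgfra had 1250 and 1230 CPM in the PBS libraries against 626, 544 and 591 CPM in the untreated libraries. Sfrp4 had 106 and 183 CPM and Sfrp2 36.3 and 146 CPM in PBS libraries, against 1880, 1680 and 418 CPM and 1270, 1310 and 246 CPM in untreated ones, so that both PBS values lay below the lowest untreated value. Gdf10 had 249 and 381 CPM against 922, 933 and 509 CPM, Sparc 7900 and 7170 CPM against 23000, 20700 and 13200 CPM, and Col3a1 48100 and 43900 CPM against 22600, 21800 and 13100 CPM. In all, 69 of the 258 differed by more than 2-fold between the means of these 2 sets of libraries. Neither this share nor the one above was computed over all genes tested, so they describe the 258 only.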

How the data were processed

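Polyadenylated RNA of sorted mouse muscle cells was measured in 12 libraries, and 2 PBS-injected MmSC libraries served as a description. The authors deposited 1 table of raw read counts per gene symbol, and per the submitters' processing notes it was made with STAR 2.7.3a and featureCounts on mm10 (GRCm38). How multi-mapped reads were handled, and with which strand setting and annotation, is not given in the sources used here. Overlapping, antisense and near-identical genes may share reads.

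Group and replicate number come from the sample titles. Nothing says that the libraries came from separate animals, so p-values reflect only the spread among these samples, which may be technical. The 12 libraries were fitted with edgeR 4.0.16 in R 4.3.3, keeping 14830 of 55011 genes by filterByExpr with a minimum count of 10. TMM factors were 0.772 to 1.26, and 1 mean per group was fitted with the quasi-likelihood F-test and Benjamini-Hochberg adjustment over all genes tested. Genes were called at an adjusted p under 0.05. Each adjusted p printed is from edgeR. The contrasts were MmSC minus the mean of the other 3 populations, and minus each. "Above each" needs all 3 single contrasts. The biological coefficient of variation was 22.9%. Counts of replicates were further apart than sampling noise allows (chi-square per degree of freedom 5.35 to 18.1), so none was taken for a copy. The SE was taken as the size of the log2 difference divided by the square root of F. Where a group had 0 counts, at-least folds were computed with 3 counts set for its 3 libraries together. With 1 to 3 counts a ratio with a 95% exact interval is given, and both cover counting error only. TPM used union exon lengths from GENCODE M21. The pipeline was tested on simulated counts with known changes in a small set of genes and none elsewhere. Differences as wide as those between these populations were not simulated.

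The genes and lists were chosen with earlier results of these data known. Any list member could be named, starting with those having the largest smallest difference over the other populations, then those below a population, then undetected ones. Outside the lists, the rule used genes without overlap between MmSC and other libraries whose average log2 CPM reached 3. It took the 10 genes above each population with the largest smallest difference. Among genes below each population it took the 5 whose largest signed difference was lowest. Other scaling, DESeq2 1.42.0, filters, 24 libraries in the fit, a replicate block, a 2-fold test and leaving out each library were tried. A few list members are not reported here by name, although the counts of their lists include them.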

Additional observations from a re-analysis of the deposited data

How the results depend on the processing

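With RLE scaling, DESeq2, 2 other filters, all 24 libraries of the experiment or the replicate block, the counts of genes above each population stayed between 1357 and 1507 against 1362, and 1288 to 1362 of the 1362 were called again. No listed difference that was called changed direction. The test against a 2-fold difference (glmTreat), which asks more by construction, left 2045 genes above and 813 below the mean, 662 above and 102 below each population, 1790 above and 852 below MuSCs, 1884 above and 1631 below CD31+ cells, and 2617 above and 2253 below CD45+ cells. Under it 7 growth factor receptors (11 before), 5 cytokines and chemokines (9 before) and 0 nuclear receptors (4 before) were above each population. Leaving out 1 library gave 1178 to 1495 genes above each and 305 to 414 below each, the lowest without the first MuSC library, against 460 with all. Of 284 named genes above each population, 256 kept the call without any 1 of the 12 libraries and 225 in all 19 alternatives. In 183 of 636 named genes the difference moved by more than 1.5-fold when 1 library was left out. Deviations of same-numbered libraries were weakly related (18 pairs, r from -0.0112 to 0.084, against -0.071 to 0.0244 for different numbers), and 11 of 12 libraries were closest to their own number, a hint from the data that the labels do not explain. No pair exceeded 0.1, so the numbers were not used as pairs, and the replicate block gave 1357 genes above and 421 below each. Genes at few counts in a population carry wide errors, and 621 of the 726 listed genes were high enough to test.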
